A study of Mus musculus with 3 samples.

Results

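The polyamine pathway genes described here are Odc1, Srm, Sms, Amd1, Oaz1, Azin1 and Sat1, 7 of the 31053 genes counted, each matched by its symbol. RNA was counted in single cells from cochlear explants of adult mice, 4 to 6 weeks old. The strain was named rtTA/tet-on-Myc/tet-on-NICD. In these mice rtTA, a protein that binds DNA when doxycycline (Dox) is present, can switch on transgenes for Myc and for the intracellular domain of Notch (NICD). There were 2 Dox libraries, from explants cultured with Dox at 2 µg/ml for 4 days, and 1 Control library, from explants of the same strain given sterile water, and each library pooled 4 cultures. All groups therefore carried the transgenes, no library came from Dox-treated explants without them, and effects of the drug and of the transgenes cannot be told apart. Which cell types make rtTA was not stated in the labels, and with 1 Control library its spread was assumed to equal that of the Dox libraries.

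Polyamines (putrescine, spermidine and spermine) are small positively charged molecules that bind RNA and DNA and are needed for growth and translation. Ornithine decarboxylase (Odc1) makes putrescine, Amd1 makes the aminopropyl donor from S-adenosylmethionine, and spermidine synthase (Srm) and spermine synthase (Sms) use that donor in turn. Antizyme (Oaz1) binds ornithine decarboxylase and sends it to the proteasome, antizyme inhibitor (Azin1) binds antizyme in its place, and Sat1 acetylates spermidine and spermine for breakdown or export. Odc1 is a textbook target of Myc. In the inner ear, deletion of Sms in Gyro mice and drugs that block ornithine decarboxylase are both known to impair hearing.

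Because Myc family proteins bind the palindrome CACGTG, the bases before the RefSeq start sites of the members were searched for it. In build GRCm38.p6 RefSeq promoters were matched for 5 of the 7 members, with 6 windows of 300 bases (250 before the start and 50 after it), and not for Srm or Azin1. The palindrome, which reads the same on both strands, lay in 1 of the 6 windows, that of one Sms start. The share holding it was 7.15% over all 32851 windows listed, and 8.09% of the 27025 genes had at least 1 such window. The 250 bases before the start are shown 5′ to 3′ for that Sms window (chrX:157492288-157492537, minus strand) and for Odc1 (chr12:17544623-17544872, plus strand), the gene that makes the first polyamine. Capitals mark the match, which begins 196 bases before the Sms start, and the Odc1 window held none. A match is a run of letters and not evidence of binding. A window without a match says nothing of sites outside its 300 bases, such as further into the gene.
Sms: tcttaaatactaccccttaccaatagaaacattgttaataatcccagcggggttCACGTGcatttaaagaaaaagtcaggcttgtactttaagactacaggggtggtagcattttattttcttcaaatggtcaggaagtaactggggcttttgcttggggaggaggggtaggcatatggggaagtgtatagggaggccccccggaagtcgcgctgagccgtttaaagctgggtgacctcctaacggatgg
Odc1: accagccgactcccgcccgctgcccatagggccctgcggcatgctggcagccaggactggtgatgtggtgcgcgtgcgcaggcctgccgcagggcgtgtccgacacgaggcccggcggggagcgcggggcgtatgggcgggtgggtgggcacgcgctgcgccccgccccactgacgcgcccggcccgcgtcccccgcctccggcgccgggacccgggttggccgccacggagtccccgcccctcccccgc

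Unique molecular identifiers (UMIs), each standing for 1 captured RNA molecule, summed to 20309102 and 33385927 in the Dox libraries and 5436731 in the Control library. The libraries shared cell barcodes, 68 between the Dox libraries and 101 and 92 between each of them and Control. In every shared set the copies outside the deepest library held at most 1.68% of the deepest copy's UMIs, and these 193 shallow copies were left out of the values below (41 and 72 from Dox, 80 from Control). The filters then left 595 and 925 Dox cells and 283 Control cells, with medians of 20441 and 29877 UMIs per Dox cell and 12829 per Control cell. Of 18 clusters, 3 formed named classes that reached the minimum of 20 cells per library. They were supporting cell-like (57 and 26 Dox cells, 23 Control cells), Schwann or satellite glia-like (38 and 50 Dox cells, 28 Control cells) and macrophage-like (45 and 24 Dox cells, 23 Control cells). With the shallow copies kept, the Control supporting cell-like class had 30 cells, of which 7 were such copies.

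Levels in classes are given as CPM, a gene's UMIs relative to all UMIs of the class in that library, after TMM scaling. Notch1 and Myc were read first as a check of the labels, although UMIs of a transgene and its endogenous gene cannot be divided and the labels do not say which Notch gene the NICD came from. Notch1 rose in supporting cell-like cells to 433 and 494 CPM in Dox libraries, against 35.3 CPM in Control (log2 difference 3.70, adjusted p = 5.44e-05), and in glia-like cells by 3.07 on the log2 scale (adjusted p = 0.000357). Myc rose in glia-like cells to 108 and 71.7 CPM in Dox libraries, against 27.8 CPM in Control (log2 difference 1.70, adjusted p = 0.0375). In supporting cell-like cells Myc was at 39.5 and 63.8 CPM in Dox libraries and 10.9 CPM in Control, where it had 4 UMIs, and missed the threshold (adjusted p = 0.0682). In macrophage-like cells neither gene passed (Notch1 log2 difference 1.34, Myc -0.65).

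Across the 3 classes the clearest change was in Srm, the spermidine synthase, which rose in supporting cell-like and glia-like cells. Azin1, the antizyme inhibitor, fell in the same classes, and Odc1 rose in glia-like cells. No member passed the threshold in macrophage-like cells. A call means that the quasi-likelihood F test of edgeR gave a Benjamini-Hochberg p, adjusted over all genes of the class, no larger than 0.05. Of the 7 members, 2 were called in supporting cell-like cells, where 8.45% of 8902 genes were called: 1 higher, against 5.57% of genes, and 1 lower, against 2.88%. In glia-like cells 3 of 7 were called, where 7.05% of 7618 genes were called: 2 higher, against 3.36% of genes, and 1 lower, against 3.69%. In macrophage-like cells 0 of 7 were called, against 2.18% of 7740 genes in either direction (1.3% higher, 0.879% lower). DESeq2 also called 0 there, and Sat1 was the 1 member of 7 with an unadjusted p no larger than 0.05. With total counts in place of TMM the split of calls over all genes was 472 higher and 1464 lower in supporting cell-like cells, against 496 and 256 with TMM, and 273 higher and 617 lower in glia-like cells, against 256 and 281. With the shallow copies kept, the called members were the same in supporting cell-like and macrophage-like cells, and Sat1 joined them in glia-like cells (adjusted p = 0.0446).

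**Figure D1:**
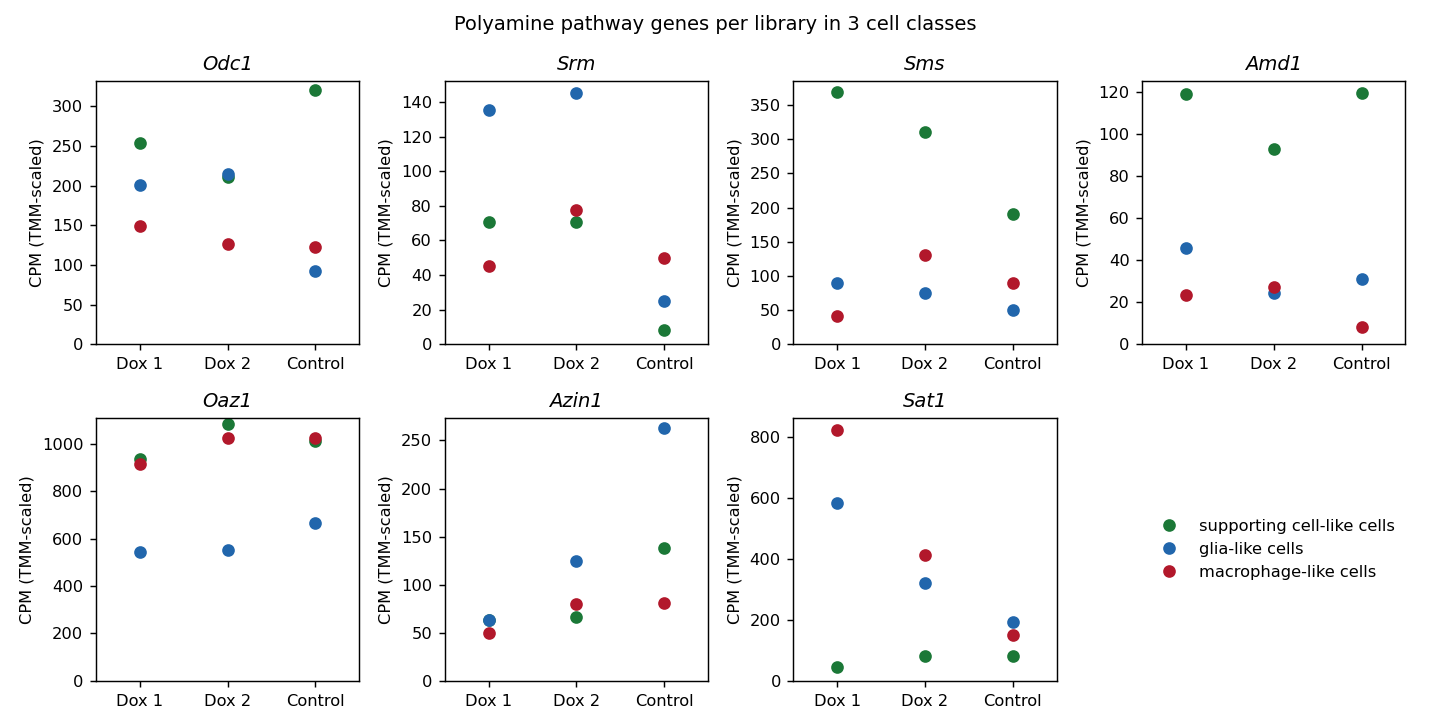
TMM-scaled CPM of each member (y axis, linear, from 0) in the 2 Dox libraries and the Control library (x axis), with 1 point per library and cell class. Srm was above Control in both Dox libraries of the supporting cell-like and glia-like classes, at 70.7 to 145 CPM against 8.15 and 24.7 CPM.

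The enzyme at the head of the pathway, Odc1 (ENSMUSG00000011179, GRCm38 chromosome 12, 17544794 to 17551505, plus strand), differed in direction between classes. In glia-like cells it had 201 and 215 CPM in Dox libraries, against 92.8 CPM in Control, and it rose by 1.16 on the log2 scale (SE 0.33, adjusted p = 0.0417). Both Dox values lay above Control, and 89.5% and 76.0% of Dox cells had an Odc1 UMI, against 57.1% of Control cells. Median depths were 17786.5 and 10546.5 UMIs in those Dox cells and 9911.5 in Control cells. Supporting cell-like cells had Odc1 at 254 and 211 CPM in Dox libraries, against 321 CPM in Control, and missed the threshold (log2 difference -0.46, SE 0.24, adjusted p = 0.293). That value depended on the scaling, since scaling by total counts put Odc1 at -0.95 and all genes of the class at a median of -0.47 (adjusted p = 0.00112). In macrophage-like cells Odc1 had 150 and 126 CPM in Dox libraries and 122 CPM in Control, a log2 difference of 0.17 (SE 0.56). A single Control cell held 43.2% of the 44 Control Odc1 UMIs in that class. Its median cell was at 61.9 and 41.9 CPM in Dox and 0.0 CPM in Control. Median depths there were 10483 and 23459.5 UMIs in Dox and 7810 in Control. The glia call was lost by DESeq2 (adjusted p = 0.478), with total count scaling (0.0871, with the median of all genes at -0.22) and at a clustering resolution of 2 (0.383), where 15 Control cells remained.

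Srm (ENSMUSG00000006442, chromosome 4, 148591503 to 148594993, plus strand) had the widest gap between Dox and Control of the 7 members in supporting cell-like and glia-like cells. In glia-like cells it had 136 and 145 CPM in Dox libraries, from 98 and 77 UMIs, against 24.7 CPM in Control, from 8 UMIs. The log2 difference was 2.49 (SE 0.44, adjusted p = 0.00191), and it passed the threshold in every setting tested in which Srm had an adjusted p. In supporting cell-like cells Srm had 71.0 and 70.7 CPM in Dox libraries, from 133 and 51 UMIs, against 8.15 CPM in Control, from 3 UMIs. The log2 difference was 3.10 (SE 0.55, adjusted p = 0.00667), and the ratio of scaled sums was 8.70 with a 95% counting interval of 2.93 to 42.6. DESeq2 gave this class an adjusted p of 0.0615. In macrophage-like cells Srm had 45.3 and 77.4 CPM in Dox libraries, on either side of the 50.1 CPM in Control. A single Control cell held 72.2% of the 18 Control Srm UMIs there. With cells weighted equally, Srm in that class was at 49.2 and 93.5 CPM in Dox and 19.4 CPM in Control.

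Depth bears on the share of cells with an Srm UMI. Among supporting cell-like cells 45.6% and 50.0% of Dox cells had one, against 13.0% of Control cells, at median depths of 8986 and 22704 UMIs in Dox and 6701 in Control. After thinning to 1000 UMIs, which left out 6, 0 and 2 shallower cells, the shares were 5.88% and 3.85% in Dox and 9.52% in Control, from 3, 1 and 2 cells. These shares come from 1 random draw, and so few cells cannot show whether Dox and Control differ. Over all draws, the mean number of Srm UMIs was 2.38 in 51 cells and 1.31 in 26 cells of Dox, and 0.334 in 21 cells of Control. Averaged over cells of equal weight, Srm was at 41.7 and 50.5 CPM in Dox and 14.5 CPM in Control. No class was known to lack Srm, so no background share was set.

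**Figure D2:**
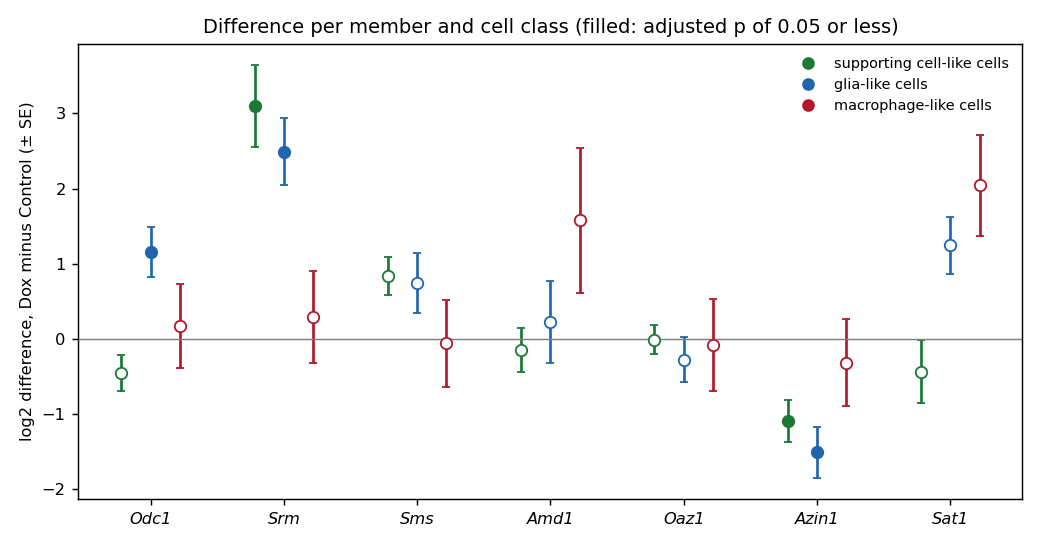
Log2 difference, Dox minus Control, with its standard error (y axis) for each member (x axis) in the 3 classes, from a fit to 2 Dox libraries and 1 Control library. Filled points passed an adjusted p of 0.05: Srm and Azin1 in supporting cell-like cells, and Srm, Odc1 and Azin1 in glia-like cells.

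The other enzymes of synthesis differed less. Sms (ENSMUSG00000071708, chromosome X, 157443855 to 157492287, minus strand) had 369 and 311 CPM in Dox libraries, against 190 CPM in Control, in supporting cell-like cells (log2 difference 0.84, SE 0.25, adjusted p = 0.0735). Both Dox values were above Control there, and the difference passed the threshold at a clustering resolution of 2 (adjusted p = 0.0158) and with no low-count filter (0.0229). With each cell weighted equally it was -0.21, so the sign rests on how cells are weighted. In glia-like cells Sms had 90.0 and 75.5 CPM in Dox libraries and 49.5 CPM in Control, a log2 difference of 0.75 (SE 0.40, adjusted p = 0.305). In macrophage-like cells the Dox libraries had 41.2 and 130 CPM, on either side of the 89.0 CPM in Control.

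Amd1 (ENSMUSG00000075232, chromosome 10, 40287458 to 40302186, minus strand) has a near-identical copy, Amd2, on the same chromosome. RNA of the pair may not be assigned reliably to either gene, so the Amd1 values are uncertain. Over all kept cells Amd2 was at 9.32 and 8.04 CPM in Dox and 10.9 CPM in Control, unscaled. In supporting cell-like cells Amd1 had 119 and 92.9 CPM in Dox libraries and 120 CPM in Control (log2 difference -0.15, SE 0.30). In glia-like cells the Dox libraries had 45.7 and 24.5 CPM, on either side of the 30.9 CPM in Control. In macrophage-like cells it had 23.4 and 27.3 CPM in Dox libraries and 8.34 CPM in Control, from 3 UMIs, and the ratio was 3.03 (95% interval from counting error 0.954 to 15.4).

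The regulators of ornithine decarboxylase moved unequally. Oaz1 (ENSMUSG00000035242, chromosome 10, 80826656 to 80829290, plus strand) had 935 and 1083 CPM in Dox libraries and 1014 CPM in Control in supporting cell-like cells, with Control between the Dox values. Its log2 differences were -0.01 (SE 0.19) in supporting cell-like, -0.28 (SE 0.30) in glia-like and -0.08 (SE 0.61) in macrophage-like cells, and none passed the threshold. With total count scaling the supporting cell-like value was -0.50, near the -0.47 of all genes, and was called (adjusted p = 0.0436). Antizyme acts as protein made by a frameshift, which UMI counts do not measure.

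Azin1 (ENSMUSG00000037458, chromosome 15, 38487427 to 38519266, minus strand) was below Control in both Dox libraries of all 3 classes, though in macrophage-like cells Dox replicate 2 had 80.4 CPM against 80.6 CPM in Control. In glia-like cells it fell to 63.7 and 125 CPM in Dox libraries, against 263 CPM in Control (log2 difference -1.51, SE 0.34, adjusted p = 0.0117). The supporting cell-like level fell to 63.5 and 66.6 CPM in Dox libraries, against 139 CPM in Control (log2 difference -1.10, SE 0.28, adjusted p = 0.0394). A single Control cell held 52.9% of the 51 Control UMIs in supporting cell-like cells, and the median over cells was 0.0 and 26.8 CPM in Dox and 35.6 CPM in Control. In glia-like cells the top Control cell held 15.3% of UMIs, and the median cell was at 43.3 and 79.7 CPM in Dox and 103 CPM in Control. The glia-like value was 0.08 at a clustering resolution of 2, where the class kept 15 Control cells, and DESeq2 called Azin1 in neither class (adjusted p = 0.237 in glia-like and 0.389 in supporting cell-like cells). The supporting cell-like call was also lost under the strict cell filter (adjusted p = 0.0623) and without cells of little Malat1 (0.0586), which made up 54.4% and 46.2% of that class in Dox and 52.2% in Control. Gm49077 overlaps Azin1 on the other strand, and the labels do not say whether counting used strand.

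Sat1 (ENSMUSG00000025283, chromosome X, 155213132 to 155216449, minus strand), the acetylating enzyme, passed the threshold in no class in the main setting. The glia-like result was not stable. Of 15 alternatives there, 5 left it the same, 1 reversed its sign in a setting with a test, and some called Sat1 higher. In macrophage-like cells it had 824 and 414 CPM in Dox libraries, against 150 CPM in Control (log2 difference 2.04, SE 0.67, adjusted p = 0.105). In glia-like cells it had 584 and 321 CPM in Dox libraries, against 192 CPM in Control (log2 difference 1.25, SE 0.38, adjusted p = 0.0533). There 1 cell of Dox replicate 1 held 49.3% of that library's Sat1 UMIs, the median cell was at 140 and 106 CPM in Dox and 119 CPM in Control, and with cells weighted equally the log2 difference was -0.21. In macrophage-like cells the top cell held 19.8% and 15.8% of UMIs in Dox and 20.4% in Control, and the median cell was at 330 and 158 CPM in Dox and 47.0 CPM in Control. Sat1 in supporting cell-like cells had 45.4 and 81.8 CPM in Dox libraries and 81.5 CPM in Control, where the Dox libraries differed from each other more than Dox replicate 2 did from Control.

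Other RNAs moved within the same classes, and their part in the members' values was not tested. The defining supporting cell markers summed to 2198 and 2592 CPM in Dox and 4093 CPM in Control, all unscaled, with 14, 15 and 13 of 15 detected Tecta at 0 in Dox replicate 1, and Hes5 and Tecta at 0 in Control. Hair cell markers in that class summed to 261 and 287 CPM in Dox and 1047 CPM in Control, with 8, 7 and 8 of 10 detected and Atoh1 and Slc26a5 at 0 in all 3 libraries. Of 10 immediate early and heat shock genes, a list added after the data were seen, 4 fell in supporting cell-like cells (Jun, Dusp1, Hspa1a and Hspa1b), against 2.88% of all genes, and Hspa1a was at 6.40 and 9.71 CPM in Dox and 193 CPM in Control, TMM-scaled. In glia-like cells 1 of the 10 fell (Hspa1a), against 3.69% of all genes, and in macrophage-like cells 0 of the 8 tested were called. Schwann or satellite glia markers in glia-like cells summed to 1852 and 2801 CPM in Dox and 6387 CPM in Control, with 13, 12 and 13 of 14 detected and Gfra3 at 0 throughout. Macrophage markers in macrophage-like cells summed to 26122 and 10372 CPM in Dox and 24538 CPM in Control, with 15 of 15 detected in each library. The class also held neutrophil lineage markers, at 22130 and 15021 CPM in Dox and 13938 CPM in Control (10, 10 and 9 of 11 detected, Camp and Ltf at 0 in Control), which exceeded the macrophage sum in Dox replicate 2. Cd74, an antigen presentation gene, was at 3489 and 935 CPM in Dox and 47.6 CPM in Control there. It comes from the B cell marker list, whose other members are not given here. Epithelial markers in that class were at 14.6 and 614 CPM in Dox and 8.39 CPM in Control, with 5, 12 and 2 of 13 detected and Otoa at 0 in all 3 libraries. In each Control class 3 cells held 28.5% to 50.6% of the UMIs.

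Ratios between members within a library do not depend on how libraries are scaled. The ratio of Odc1 to Oaz1 UMIs in glia-like cells was 0.368 and 0.389 in Dox (95% exact binomial intervals 0.302 to 0.446 and 0.311 to 0.485) and 0.140 in Control (0.0919 to 0.205). Both Dox intervals lay above the Control interval. The supporting cell-like ratio was 0.272 and 0.195 in Dox and 0.316 in Control (0.255 to 0.390), and the interval of Dox replicate 1 (0.245 to 0.301) overlapped that of Control, while that of Dox replicate 2 (0.162 to 0.232) lay below it. In macrophage-like cells it was 0.164 and 0.123 in Dox and 0.119 in Control, with overlapping intervals. The ratio of Srm to Odc1 in supporting cell-like cells was 0.279 and 0.336 in Dox (0.229 to 0.339 and 0.239 to 0.464) and 0.0254 in Control (0.00517 to 0.0761), with both Dox intervals above Control. In glia-like cells it was 0.676 and 0.675 in Dox and 0.267 in Control (0.106 to 0.595), and the intervals overlapped. In macrophage-like cells it was 0.303 and 0.614 in Dox, on either side of the 0.409 in Control. The ratio of Sat1 to Odc1 in macrophage-like cells was 5.50 and 3.29 in Dox and 1.23 in Control (0.809 to 1.87), with both Dox intervals above. A single Control cell held 43.2% of the 44 Control Odc1 UMIs in that class. After thinning to 1000 UMIs this ratio was 4.63 and 5.48 in Dox and 2.94 in Control. In the other classes the Control value lay between the Dox values, at 2.91 and 1.49 in Dox and 2.07 in Control in glia-like cells, and 0.179 and 0.388 in Dox and 0.254 in Control in supporting cell-like cells. These intervals cover counting error only.

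**Figure D3:**
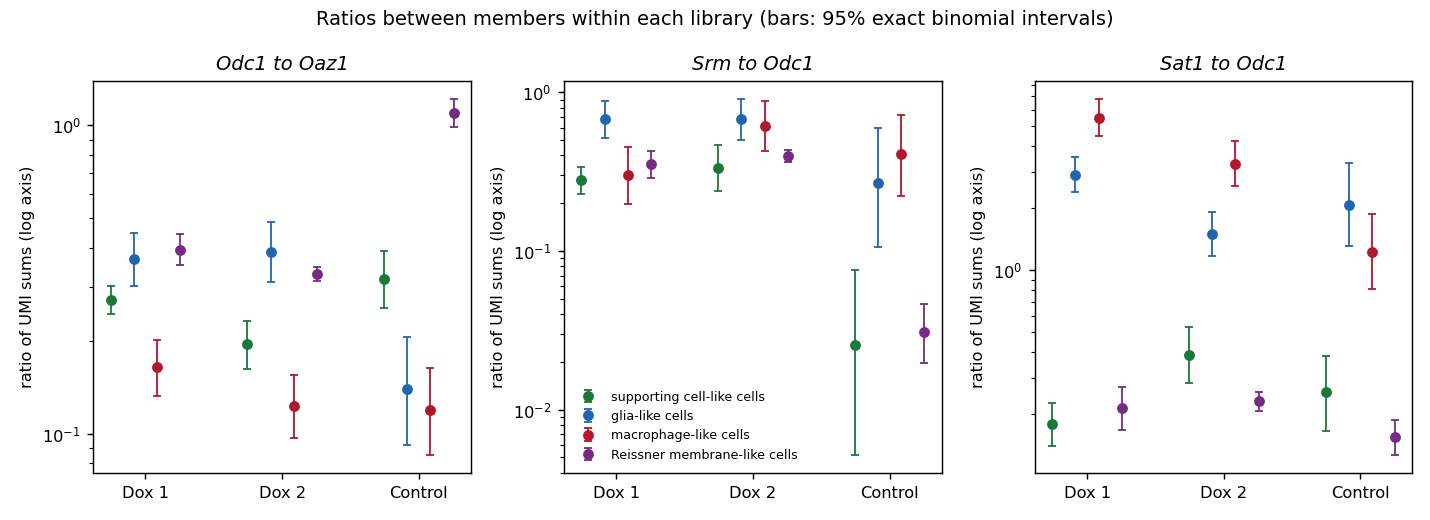
Ratios of UMI sums between members (y axis, log scale) in each library (x axis) for 4 cell classes, with 95% exact binomial intervals as bars. In the Reissner membrane-like class the Odc1 to Oaz1 ratio was 0.396 and 0.329 in Dox and 1.10 in Control, while in glia-like cells it was 0.368 and 0.389 in Dox and 0.140 in Control.

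Reissner membrane-like cells had 17 Control cells, under the minimum, and are described with no test. Their 4 markers were all detected in each library and summed to 1917 and 1730 CPM in Dox and 6191 CPM in Control, led by Vmo1 at 1698 and 1524 CPM in Dox and 5707 CPM in Control. The markers thus moved the same way as Odc1, and their part in its values was not tested. Per the labels' protocol this membrane was trimmed at the ends of the cochlea before culture. Odc1 was at 264 and 268 CPM in Dox libraries, against 869 CPM in Control, all unscaled. The Poisson interval of the Control value, 809 to 932 CPM, lay above both Dox intervals, and the median cell was at 207 and 186 CPM in Dox and 606 CPM in Control. A single Control cell held 40.8% of the Control Odc1 UMIs. Srm in this class was at 93.0 and 107 CPM in Dox and 27.0 CPM in Control (17.3 to 40.1). The ratio of Srm to Odc1 was 0.352 and 0.398 in Dox and 0.0310 in Control (0.0198 to 0.0465).

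Over the 8 clusters with at least 10 cells in each library, Odc1 was lower than Control in both Dox libraries in 6 and higher in both in 1, the glia-like cluster. Both Dox intervals lay below the Control interval in 5 clusters and above it in 1. No such tally was made over all genes, here or for the members below, so these counts have no background share. In the cluster led by Epyc and Lum, Odc1 was at 301 and 222 CPM in Dox and 876 CPM in Control, and in that led by Bdh2 and S100a1 at 343 and 240 CPM in Dox and 1591 CPM in Control. Its level was highest in the cluster led by the heat shock genes Hspa1a and Hspa1b, at 731 and 1147 CPM in Dox and 1828 CPM in Control, a cluster of shallow cells with a median of 2352 UMIs. Among clusters of 20 or more cells, Odc1 was lowest in macrophage-like cells of both Dox libraries (145 and 122 CPM) and in glia-like cells of Control (101 CPM). The Control glia-like interval, 68.1 to 144 CPM, overlapped that of Control macrophage-like cells at 123 CPM (89.5 to 165). Control clusters held as few as 11 cells, and their depth and cell numbers differed from Dox.

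Srm was higher than Control in both Dox libraries in 7 of these 8 clusters, with both intervals above Control in 4, and the remaining cluster was the macrophage-like one. The cluster led by Tnc and Dmp1 had the highest Srm level among clusters of 20 or more cells of Dox replicate 2, 263 CPM. Pericyte or smooth muscle-like cells followed there at 187 CPM and had 159 CPM in Dox replicate 1. Azin1 was lower than Control in both Dox libraries in all 8 clusters, with both intervals below Control in 4. These levels are unscaled, and Oaz1, which was at -0.01 on the log2 scale with TMM in supporting cell-like cells, was in the same tally lower in both Dox libraries in 5 clusters and higher in 0, with both intervals below Control in 2. Sms was highest in the supporting cell-like cluster of every library among clusters of 20 or more cells, at 318 and 278 CPM in Dox and 235 CPM in Control. In Dox the next cluster, led by Epyc and Lum, had 260 and 261 CPM, and in Dox replicate 2 its interval overlapped that of supporting cell-like cells. Sat1 was highest in macrophage-like cells of Dox, at 796 and 401 CPM. In Control it reached 1010 CPM in the 14 cells of a cluster led by the melanocyte genes Dct and Pax3. All values in this and the previous paragraph are unscaled.

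**Figure D4:**
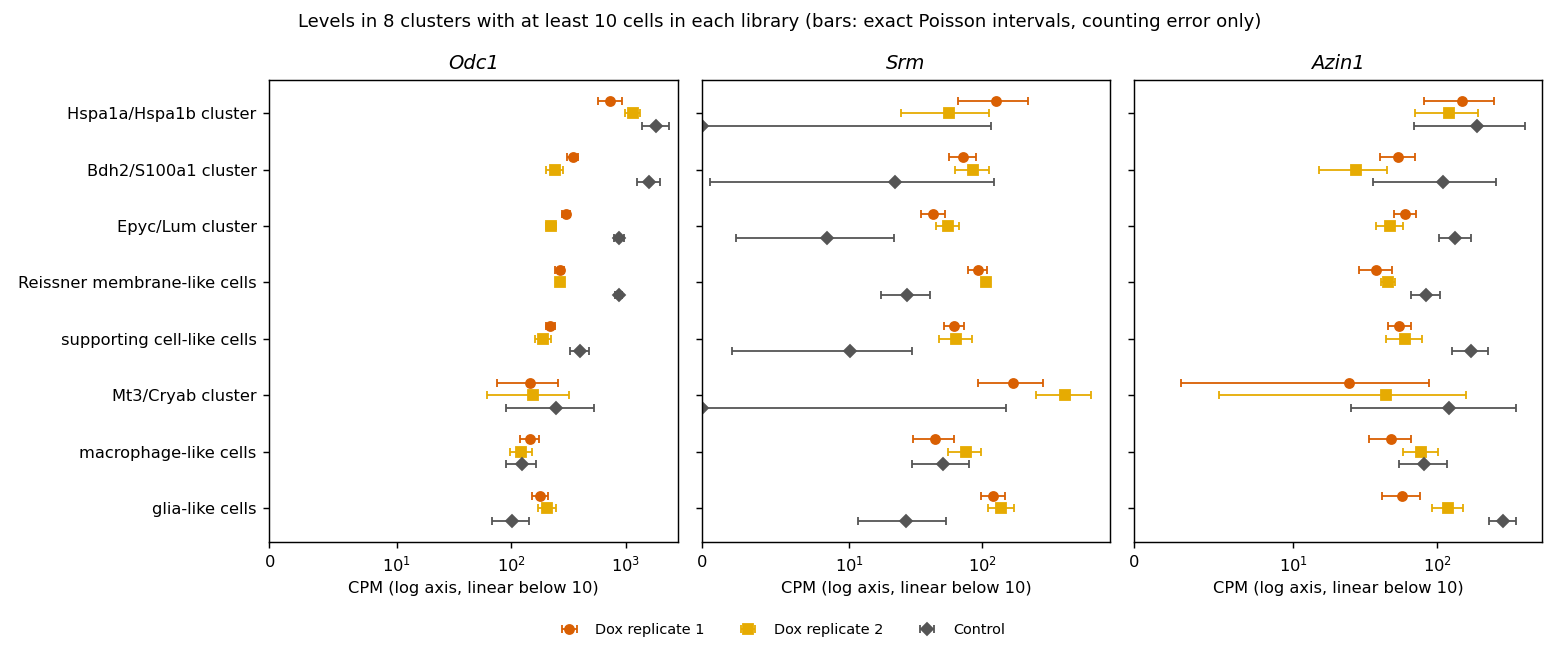
Unscaled CPM of Odc1, Srm and Azin1 (x axis, log scale, linear below 10) in the 8 clusters with at least 10 cells in each library (y axis), with exact Poisson 95% intervals. Control lies to the right of both Dox libraries for Odc1 in 6 clusters and for Azin1 in 8, and to their left for Srm in 7. No such tally was made over all genes, so these counts have no background share. With total count scaling the median log2 difference of all genes was -0.47 in supporting cell-like cells and -0.22 in glia-like cells.

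Summed over all kept cells, the mix of cell types differed between libraries, and a fibroblast-like cluster of 97 cells was found in the Control library alone. In these sums 2 of 7 members were called, both higher, against 10.1% of 15421 genes called higher, 8.33% called lower and 18.5% in either direction. Srm was at 105 and 141 CPM in Dox libraries and 26.5 CPM in Control (log2 difference 2.22, SE 0.26, adjusted p = 0.0198). Sms was at 212 and 200 CPM in Dox libraries and 118 CPM in Control (log2 difference 0.80, SE 0.14, adjusted p = 0.0308). Total count scaling took Sms to 0.51 (adjusted p = 0.0651) and called Odc1 (-0.68, 0.0346) and Azin1 (-0.93, 0.0346), with the median of all genes at -0.30. Azin1 missed the threshold at -0.64 (SE 0.15, adjusted p = 0.0529), Amd1 at 0.58 (0.0678) and Odc1 at -0.39 (0.102).

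The wider pathway, 32 genes of polyamine turnover, hypusine formation, methionine salvage and transport, had 2 of 19 tested genes called in supporting cell-like cells, both higher, and 3 of 18 in glia-like cells, all higher. In macrophage-like cells 1 of 22 was called, and it was lower. Over all genes the shares called were 8.45%, 7.05% and 2.18% in these classes, and the count in supporting cell-like cells was near its background. In all kept cells 7 of 28 were called higher, against 10.1% of all genes, of which 5 were among the 9 genes of the methionine cycle and salvage, and 3 lower, against 8.33%. Median log2 differences over the tested genes were 0.90, 0.63 and 0.12 in these classes, beside 0.03, 0.02 and 0.05 over all genes. Eif5a, the translation factor that carries hypusine, made from spermidine, rose in supporting cell-like cells to 575 and 612 CPM in Dox, against 228 CPM in Control (log2 difference 1.38, adjusted p = 0.00486). Slc7a1, a transporter of arginine and ornithine, rose in supporting cell-like cells to 47.5 and 43.0 CPM in Dox, against 10.9 CPM from 4 UMIs in Control (adjusted p = 0.048). It rose in glia-like cells to 63.7 and 49.1 CPM in Dox, against 12.4 CPM from 4 UMIs in Control (adjusted p = 0.0306). Its relative Slc7a2 rose in glia-like cells to 148 and 104 CPM in Dox, against 43.3 CPM in Control (adjusted p = 0.0298). In all kept cells, where the mix of cell types differed between libraries, Slc7a2 was instead called lower. It was at 14.1 and 14.1 CPM in Dox there, and 47.9 CPM in Control.

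Mri1, an enzyme of methionine salvage, rose in glia-like cells to 41.5 and 37.7 CPM in Dox, against 6.19 CPM from 2 UMIs in Control (adjusted p = 0.0414). Arg1, which makes ornithine from arginine and is a marker of macrophage state, fell in macrophage-like cells to 177 and 334 CPM in Dox, against 2745 CPM in Control (log2 difference -3.42, SE 0.61, adjusted p = 2.16e-05). Mat2a, which makes S-adenosylmethionine, was not called in supporting cell-like (386 and 273 CPM in Dox, 405 CPM in Control) or glia-like cells (382 and 340 CPM in Dox, 223 CPM in Control). In all kept cells Mat2a was called higher, at 268 and 260 CPM in Dox and 160 CPM in Control (log2 difference 0.72). Oat, which turns ornithine into a precursor of glutamate, was not called in any of the 3 classes. Neither Slc3a2 nor Atp13a3, a polyamine transporter, was called in any of them.

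Genes whose levels ran most like those of the members other than Sms were sought over 29 sums of at least 20 cells, 1 per cluster and library, among 6773 genes. For Srm they were Rsl1d1, Nudcd2 and Gspt1 (Pearson r 0.91, 0.90 and 0.88), for Odc1 Ptp4a1, Csnk1d and H2afj (0.86, 0.83 and 0.83) and for Azin1 Pafah1b1, Atp2c1 and Dyrk1a (0.86, 0.86 and 0.84). For Amd1 they were Cmtm4, Cystm1 and Dynll2 (0.87, 0.85 and 0.84). For Oaz1 they were Ptp4a2, Rab11a and Pomp (0.79, 0.76 and 0.76), and for Sat1 Hexa, Ctsb and Ctsd (0.79, 0.78 and 0.77). The sums share libraries and depths, so these values describe the data only.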

How the data were processed

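Sensory epithelium was dissociated with trypsin and its cells captured with a 10x Genomics 3′ v3.1 kit, per the labels' protocols. The authors deposited UMI counts per gene and barcode. The submitters' processing notes name Cell Ranger 5.0, STAR and Seurat 3.2.2 with GRCm38, while the matrix headers give software version 3.1.0, and introns and strand are not given in the sources used here. A barcode was kept from 200 genes upward if mitochondrial UMIs did not exceed 20%, which left out 152 and 98 Dox and 149 Control barcodes. Before this, copies of a shared barcode with under 10% of the deepest copy's UMIs were left out, a choice made after the data were seen. Scrublet marked 3 cells and was taken not to have worked, so no doublet was removed.

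Cells were scaled to 10000 UMIs, reduced to 2000 variable genes and 30 components and clustered (15 neighbours, Leiden resolution 1, scanpy 1.11.5, leidenalg 0.10.2). A cluster was named from at least 3 markers among its 25 leading genes. Counts were summed per class and library and tested with edgeR 4.0.16 in R 4.3.3 (quasi-likelihood F test, TMM, filterByExpr, Benjamini-Hochberg). The 7 members passed that filter in every class tested. Each SE given was derived from the test, as the log2 difference without its sign divided by the square root of F. The spread behind the p-values comes from the 2 Dox libraries, with 1 residual degree of freedom per gene. edgeR moderates it with the spread of all genes of the class, so a p-value does not rest on the gene's own spread alone. The spread between the Dox libraries may be technical. Unscaled CPM has exact Poisson intervals. Steps were tested on simulated counts.

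The members and lists were chosen with earlier results of these data known. Members were named whatever their values, with Myc, Notch1, called genes of the wider lists and up to 3 more per list by UMI total. Genes of like pattern had at least 1000 UMIs and were compared as log2(CPM + 10), and those for Sms are not reported here. Alternatives were other scalings, no low-count filter, DESeq2 1.42.0, other clusterings, a strict cell filter (500 genes, 10% mitochondrial), cells of little Malat1 left out, leaving out each Dox library and thinning to 1000 UMIs. Shallow copies kept and cells weighted equally were added later. Positions come from GENCODE M21 (GRCm38), 1-based.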

Additional observations from a re-analysis of the deposited data

Results flagged for a closer look

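For 3 member and class pairs every Dox library lay on one side of Control in 1 class and on the other side in another, and the differences between classes were not tested. Odc1 was below Control in both Dox libraries of supporting cell-like cells and above it in both of glia-like cells, a difference of -1.6154 between the log2 values of -0.46 and 1.16. Odc1 was also above Control in both Dox libraries of macrophage-like cells, where the gap from supporting cell-like cells was -0.6273. The macrophage-like direction was not stable, since Dox replicate 2 had 126 CPM against 122 CPM in Control with TMM, 122 against 123 CPM unscaled, and with cells weighted equally the log2 difference was -0.19. Amd1 was below Control in supporting cell-like cells and above it in macrophage-like cells, a gap of -1.7259 that rests on 3 Control UMIs in the macrophage-like class. The supporting cell-like side was also near a tie, with Dox replicate 1 at 119.0 CPM against 119.6 CPM in Control.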

How the results depend on the processing

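No paired analysis was possible because there was 1 Control library and no replicate number was shared between groups. Of the members' log2 differences under the alternatives, 301 stayed the same. With a test this means the same direction and side of the threshold. With no test it means the same direction and a move under 1 SE. Resolution 0.5 and clustering without pathway genes returned the main cell and UMI numbers in all 3 classes, so their values could not differ. Of the rest, 16 became called, 10 lost the call, 12 changed sign in a setting with a test, and 24 moved by more than 1 SE or changed sign in a setting with no test. Of those 24, 11 changed sign. The causes were not tested. Members called numbered 2 in supporting cell-like cells, 5 with total count scaling (Sat1, Srm, Oaz1, Odc1 and Azin1), 1 (Srm) under the strict cell filter or without cells of little Malat1, 0 by DESeq2 and 0 of the 2 tested after thinning. They numbered 3 in glia-like cells, 1 (Srm) by DESeq2 and at resolution 2, and 0 of 3 tested after thinning. In all kept cells they numbered 2, and 4 with no low-count filter. Genes called in supporting cell-like cells were 752, 1936 with total counts, 1191 with no filter, 287 by DESeq2, 1361 at resolution 2 and 141 after thinning. In glia-like cells they were 537, 890 with total counts, 176 by DESeq2, 113 at resolution 2, 834 under the strict filter and 126 after thinning. In macrophage-like cells they were 169, 77 with DESeq2 size factors, 22 by DESeq2, 65 under the strict filter, 44 with shallow copies kept and 0 after thinning. In all kept cells they were 2848, 5240 with no filter and 1464 after thinning, and the split of 1564 higher and 1284 lower became 907 and 2041 with total counts. Oaz1 reversed in supporting cell-like cells to 0.024 (no filter), 0.035 (strict), 0.048 (copies kept) and 0.10 (little Malat1 out), in glia-like cells to 0.12 (resolution 2) and 0.70 (thinned), in macrophage-like cells to 0.38 (thinned) and in all kept cells to -0.054 (total counts). In glia-like cells Amd1 reversed to -0.027 (total counts), Azin1 to 0.083 (resolution 2) and Sat1 to -0.32 (thinned), and in macrophage-like cells Sms to 0.055 (little Malat1 out). With cells weighted equally the sign also changed for Sms (-0.21) and Sat1 (0.53) in supporting cell-like cells, Sat1 (-0.21) in glia-like cells, and Odc1 (-0.19), Oaz1 (0.48) and Azin1 (0.015) in macrophage-like cells. It changed without Dox replicate 1 for Oaz1 (0.096) and Sat1 (0.0055) in supporting cell-like cells, Amd1 (-0.32) in glia-like cells and Sms (0.54) in macrophage-like cells, and without Dox replicate 2 for Srm (-0.14) in macrophage-like cells. Thinned ratios use mean UMIs over all draws, while the thinned tests and shares of cells use 1 random draw. After thinning, Srm to Odc1 was 0.190 in supporting cell-like cells of Dox replicate 1 and 1.28 in macrophage-like cells of Dox replicate 2. Sat1 to Odc1 was 0.683 and 0.157 in supporting cell-like cells of Dox replicate 2 and Control, 1.61 in glia-like cells of Dox replicate 1, and 5.48 and 2.94 in macrophage-like cells of Dox replicate 2 and Control. Odc1 to Oaz1 was 0.207 in glia-like cells of Control and 0.0791 in macrophage-like cells of Dox replicate 2. Clustering each library alone found 0 supporting cell-like cells in Dox replicate 2, so that class could not be fitted. Resolution 2 left 15 Control glia-like cells. Depth limits Srm, with 3 and 8 Control UMIs in supporting cell-like and glia-like cells, and Amd1, with 10 and 3 in glia-like and macrophage-like cells.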

Other observations

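Barcodes left out by the gene and mitochondrial filter, 152 and 98 in Dox and 149 in Control, held 5 and 2 Srm UMIs in Dox and 0 in Control, at 15.9 and 14.7 CPM in Dox with an upper limit of 27.9 CPM in Control. Odc1 in these barcodes was at 155 and 51.3 CPM in Dox and 60.5 CPM in Control.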
